A study of Mus musculus with 28 samples.

Results

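Tissue inhibitors of metalloproteases, stromal matrix metalloproteases, and 3 matrix proteins that lung tissue lays down were followed in mouse lung after ozone, carbon black or both. The 10 genes were taken by name as Timp1, Timp2, Timp3, Mmp2, Mmp14, Mmp15, Mmp19, Tnc, Fn1 and Eln, out of 35880 genes in the deposited table. All 10 were found there, and all 10 were among the 14887 genes with enough counts to be tested. Messenger RNA came from whole-lung homogenates of male wild-type C57BL/6 mice, an inbred laboratory strain, given as 8 weeks old in one label and 8 to 12 weeks in another. The 28 libraries form 8 groups. On day 4, after 4 exposures, there were 3 libraries each of co-exposure to carbon black and ozone (CB-O3), ozone (O3), carbon black (CB) and sham. On day 1, after 1 exposure, there were 4 libraries each of the same exposures. Ozone, an oxidant gas, was given at 2 ppm and carbon black, an elemental carbon dust, at 10 mg/m3, for 3 hours at a time. Day and number of exposures cannot be told apart. The sources used here do not give the time between the last exposure and collection. Nothing in the labels ties libraries to separate mice, so the p-values reflect library-to-library spread, which may be technical.

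The libraries held 5135492 to 9718770 estimated counts. Within groups, log2 levels of library pairs correlated across genes with Pearson r between 0.943 and 0.985 over 36 pairs, and no pair of libraries was identical. The lung label matched its markers: Sftpc, the surfactant protein C gene of alveolar type 2 cells, had at least 11883 CPM in each library (CPM, the counts-per-million scale). Ager of alveolar type 1 cells had at least 1664 CPM, and Scgb1a1 of club cells at least 17399 CPM. Levels below are CPM scaled by TMM factors, a correction for library composition. Changes are log2 fold changes with standard errors (SE). Adjusted p-values come from edgeR's quasi-likelihood test over all 14887 genes, with a threshold of 0.05. In a homogenate, fewer cells of a type and less RNA per cell cannot be told apart.

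Matrix metalloproteases are zinc enzymes that cut collagens, elastin, fibronectin and other matrix proteins. Most are made as inactive precursors, and tissue inhibitors of metalloproteases bind the active enzyme. Timp1 is the inhibitor best known as inducible in injured and inflamed tissue, Timp2 is broadly expressed and also takes part in activating the Mmp2 precursor on the cell surface, and Timp3 is bound to the matrix. Mmp14 is a membrane-anchored protease that cuts collagen and activates Mmp2, a gelatinase made mainly by stromal cells. Mmp15 is a related membrane-anchored protease, and Mmp19 is a secreted one. Tenascin C (Tnc) and fibronectin (Fn1) belong to the provisional matrix of healing tissue, and elastin (Eln) gives the lung its recoil.

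On GRCm38, the assembly that mm10 names, Timp1 (ENSMUSG00000001131) lies at chrX:20870166-20874735 on the plus strand, inside the span of Syn1 on the opposite strand. Mmp14 (ENSMUSG00000000957) lies at chr14:54431612-54445364 on the plus strand and Tnc (ENSMUSG00000028364) at chr4:63959785-64047015 on the minus strand. On the plus strand are also Timp3 (ENSMUSG00000020044) at chr10:86300372-86349506, Mmp2 (ENSMUSG00000031740) at chr8:92827291-92853420, Mmp15 (ENSMUSG00000031790) at chr8:95352268-95375080 and Mmp19 (ENSMUSG00000025355) at chr10:128790910-128800824. On the minus strand are Timp2 (ENSMUSG00000017466) at chr11:118301069-118355740, Fn1 (ENSMUSG00000026193) at chr1:71585520-71653200 and Eln (ENSMUSG00000029675) at chr5:134702593-134747323. The bases just before the starts of Timp1, Mmp14 and Tnc are shown. Among the genes that rose on day 4, these had the smallest edgeR adjusted p-values. RefSeq's GRCm38.p6 promoter table gave windows for 6 of the 10 genes, in 7 windows. Capitals mark AGGAAG, the PEA3 motif read by Ets factors, and TGAGTAA, a variant of the AP-1 motif, each searched on both strands.
Timp1, 250 bases before the start, chrX:20869916-20870165, plus strand: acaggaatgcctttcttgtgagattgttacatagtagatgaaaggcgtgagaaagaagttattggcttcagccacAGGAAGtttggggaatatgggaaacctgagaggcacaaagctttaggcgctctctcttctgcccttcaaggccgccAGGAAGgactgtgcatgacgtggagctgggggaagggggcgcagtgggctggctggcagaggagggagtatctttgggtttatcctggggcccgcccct
Timp1, bases after the start, chrX:20870184-20870213, plus strand: tgggtggaTGAGTAAtgcgtccAGGAAGcc
Mmp14, 250 bases before the start, chr14:54431348-54431597, plus strand: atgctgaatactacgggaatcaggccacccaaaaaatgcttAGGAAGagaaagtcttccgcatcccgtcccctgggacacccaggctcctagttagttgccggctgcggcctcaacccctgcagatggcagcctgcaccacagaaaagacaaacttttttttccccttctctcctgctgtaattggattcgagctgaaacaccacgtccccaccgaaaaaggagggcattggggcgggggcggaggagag
Tnc, 250 bases before the start, chr4:64047016-64047265, minus strand: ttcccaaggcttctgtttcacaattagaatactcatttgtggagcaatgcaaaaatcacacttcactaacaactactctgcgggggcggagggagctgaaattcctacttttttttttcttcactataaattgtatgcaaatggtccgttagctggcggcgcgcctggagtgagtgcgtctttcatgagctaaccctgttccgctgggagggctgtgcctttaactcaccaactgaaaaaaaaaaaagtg
The Timp1 window of 300 bases, from 250 before the start to 50 after it, held AGGAAG at 3 places and TGAGTAA at 1. Counted from the start, the AP-1 variant lay at positions 27 to 33 and the AGGAAG next to it at positions 41 to 46. Mmp14 held 1 AGGAAG, at positions -209 to -204. The whole Tnc window held 1 AGGAAG at positions 37 to 42, beyond the bases shown, and TATAAA at positions -126 to -121, a motif in 13.6% of all windows. A second Tnc window, from another start, overlapped the first and held the same bases. Counted from that start, this AGGAAG lay at positions -43 to -38 and this TATAAA at positions -205 to -200. The Timp3 window held 1 AGGAAG, and those of Timp2 and Mmp15 held none of the motifs searched. Of 32851 windows of the same length in the table, 2.68% held TGAGTAA and 35.4% held AGGAAG. No window of the 6 genes held the AP-1 consensus TGANTCA, present in 7.81% of all windows, or the STAT motif TTCNNNGAA, present in 8.30%. These are matches of letters only, and AGGAAG is common.

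After 4 exposures, 6 of the 10 genes rose and 2 fell in CB-O3 lungs against sham lungs, where 34.1% of all tested genes passed the threshold (17.7% higher and 16.3% lower). The same counts, 6 higher and 2 lower, were found in O3 lungs of day 4, with 20.7% of all genes called (11.7% higher and 9.07% lower). Timp1, Mmp2, Mmp14, Tnc, Fn1 and Eln rose and Timp2 and Mmp15 fell in each of these comparisons. The median log2 change of the 10 genes was 0.73 in CB-O3 lungs and 1.01 in O3 lungs, against 0.0028 and -0.0050 over all genes. The 10 genes were chosen with earlier results of these data known, so an excess over all genes is a description and no test. After 1 exposure, 2 rose and 2 fell in CB-O3 lungs, with 19.2% of all genes called (10.1% higher and 9.09% lower). In O3 lungs of day 1, 3 rose and 1 fell, with 11.4% of all genes called (6.81% higher and 4.63% lower). Timp1, Tnc and Mmp15 were called in all 4 of these comparisons. The CB-O3 and O3 comparisons of a day share their sham libraries.

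**Figure D1:**
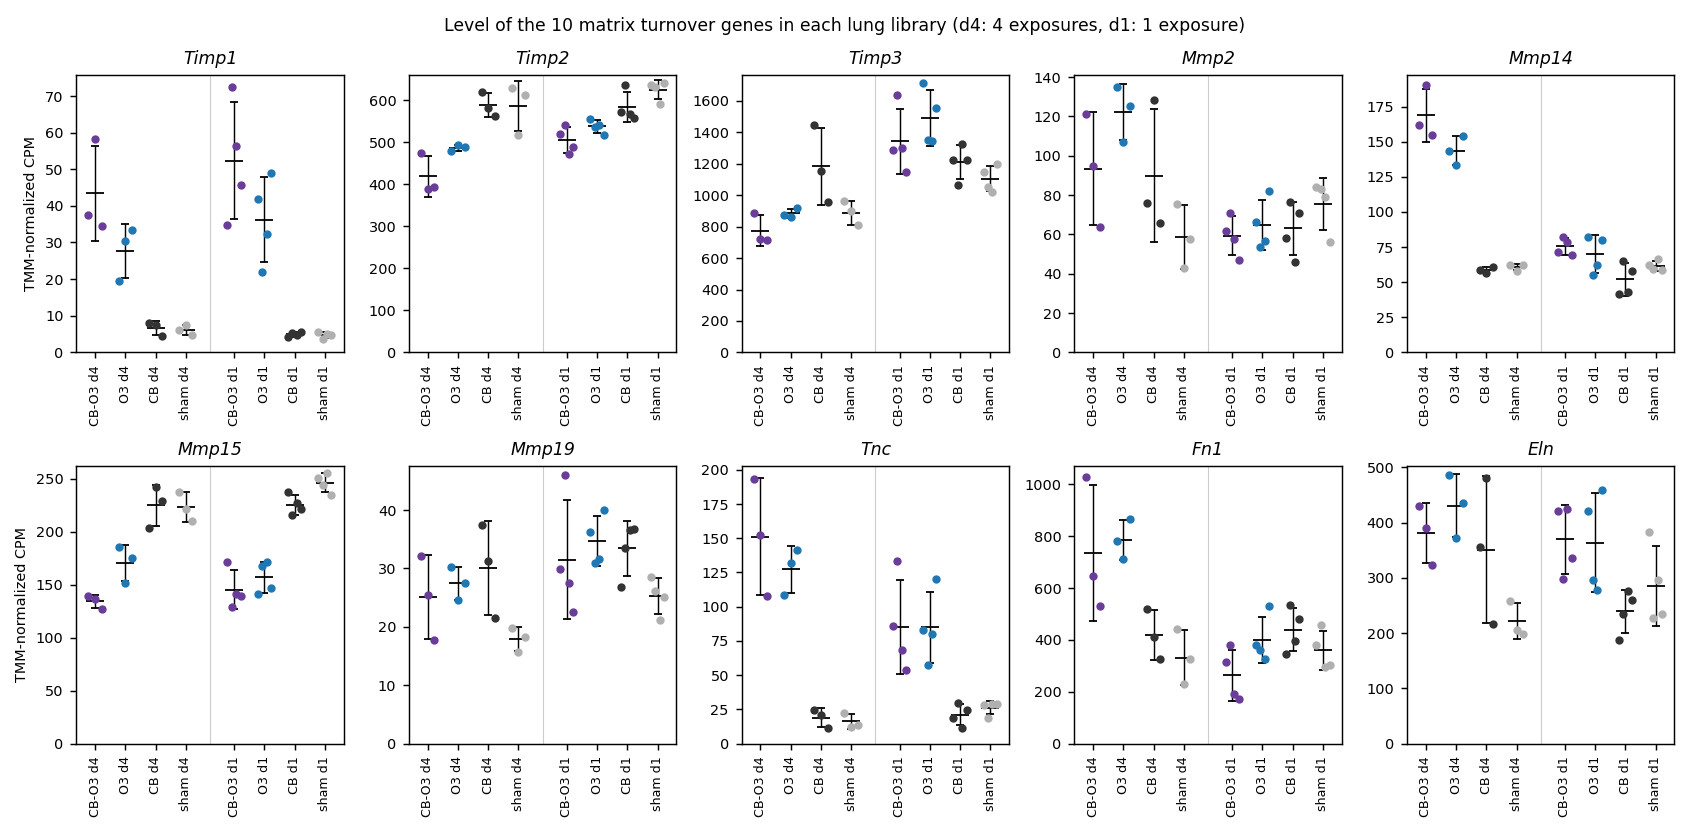
Level of each of the 10 genes in every library, as TMM-normalized CPM on a linear axis from 0, by group (d4, 4 exposures; d1, 1 exposure). Points are libraries, long bars are means and whiskers are SD over 3 libraries (d4) or 4 libraries (d1). Timp1 and Tnc lie higher in every ozone and co-exposure library than in any carbon black or sham library, and Mmp14 does so on day 4.

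Timp1 rose in every ozone-containing group. It had 37.5, 58.4 and 34.5 CPM in CB-O3 lungs of day 4, 19.5, 30.5 and 33.3 CPM in O3 lungs and 8.00, 7.38 and 4.46 CPM in CB lungs, against 6.13, 7.38 and 4.73 CPM in sham lungs. All CB-O3 libraries lay above all O3 libraries, and these above all CB and sham libraries, which overlapped. On day 1 it had 34.8, 72.4, 56.3 and 45.7 CPM in CB-O3 lungs, 41.8, 22.1, 32.2 and 48.9 CPM in O3 lungs and 4.12, 5.21, 4.69 and 5.49 CPM in CB lungs, against 5.42, 3.56, 5.0 and 4.79 CPM in sham lungs. Here CB-O3 and O3 libraries overlapped, and both stood clear of CB and sham. The log2 change against sham was 2.85 ± 0.31 in CB-O3 lungs of day 4 (7.22-fold, edgeR adjusted p = 1.8e-07) and 2.21 ± 0.31 in O3 lungs of day 4 (4.62-fold, adjusted p = 1.3e-05). For day 1 the change was 3.47 ± 0.28 in CB-O3 lungs (11.1-fold, adjusted p = 1.7e-08) and 2.93 ± 0.28 in O3 lungs (7.65-fold, adjusted p = 3.2e-07). These 4 calls held under every alternative run and without any single library. The estimated counts behind Timp1 ran from 24 to 478 per library, so its sham level rests on few counts.

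Ordered by mean, Timp1 was highest in CB-O3 lungs of day 1, then in CB-O3 lungs of day 4, O3 lungs of day 1 and O3 lungs of day 4, and each of these overlapped its neighbour. A gap followed, with a mean of 27.8 ± 7.33 CPM in O3 lungs of day 4 (SD, n = 3) above 6.61 ± 1.89 CPM in CB lungs of day 4 (SD, n = 3). The CB and sham groups of both days overlapped below it.

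Timp2, the most abundant inhibitor message per exon length in sham lungs, went the other way. It had 475, 388 and 394 CPM in CB-O3 lungs of day 4, 479, 493 and 488 CPM in O3 lungs and 619, 582 and 563 CPM in CB lungs, against 630.1, 517 and 612 CPM in sham lungs. The CB-O3 libraries lay below the O3 libraries and both lay below sham, while CB and sham overlapped. The log2 change was -0.49 ± 0.09 in CB-O3 lungs (28.6% lower, edgeR adjusted p = 0.00017). In O3 lungs it was -0.27 ± 0.09 (17.0% lower, adjusted p = 0.034). The O3 call did not hold without sham replicate 1 (-0.21, adjusted p = 0.14), sham replicate 3 (-0.24, 0.12) or any of the O3 libraries (-0.28 to -0.26, 0.075 to 0.086). It was also lost without the low-count filter (adjusted p = 0.10) and in a fit of the 2 groups alone (0.0501).

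On day 1 Timp2 had 520.2, 541, 473 and 489.5 CPM in CB-O3 lungs and 556, 537, 541 and 518 CPM in O3 lungs, against 636, 631, 591 and 640.4 CPM in sham lungs. Neither ozone-containing group overlapped sham. It fell by 0.30 ± 0.08 on the log2 scale in CB-O3 lungs (edgeR adjusted p = 0.0071). The difference in O3 lungs was -0.22 ± 0.08 (adjusted p = 0.071), which passed the threshold with DESeq2 (0.018) and in a fit of the 2 compared groups alone (0.032).

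Timp3 showed no call on day 4. It had 889, 723 and 713 CPM in CB-O3 lungs, 874, 863 and 917 CPM in O3 lungs and 1445, 1153 and 956 CPM in CB lungs, against 961, 898 and 808 CPM in sham lungs. The ozone-containing groups overlapped sham, with log2 differences of -0.20 ± 0.14 in CB-O3 lungs (adjusted p = 0.29) and -0.01 ± 0.14 in O3 lungs (adjusted p = 0.98). On day 1 it rose in O3 lungs, to 1716, 1353, 1344 and 1556 CPM against 1148, 1054, 1023 and 1201 CPM in sham lungs, without overlap. That change was 0.43 ± 0.12 on the log2 scale (adjusted p = 0.020) and did not hold without sham replicate 2 or 3 or O3 replicate 1 or 4 (0.36 to 0.41, adjusted p = 0.055 to 0.076). In CB-O3 lungs of day 1 the difference was 0.28 ± 0.12 (adjusted p = 0.10).

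Per kilobase of exon, Timp1 was a minor inhibitor message in sham lungs and a larger one after ozone. Its share of the summed level of the 3 inhibitors was 19.5 ± 5.6% in CB-O3 lungs of day 4, 11.7 ± 2.66% in O3 lungs and 2.42 ± 0.48% in CB lungs, against 2.58 ± 0.65% in sham lungs (SD, n = 3 each). The day 1 shares were 16.4 ± 3.35% in CB-O3 lungs, 11.1 ± 2.88% in O3 lungs and 1.81 ± 0.24% in CB lungs, against 1.75 ± 0.30% in sham lungs (SD, n = 4 each). The lowest ozone-containing library had 7.56% and the highest CB or sham library 3.30%. The share restates the levels above and was not tested.

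**Figure D2:**
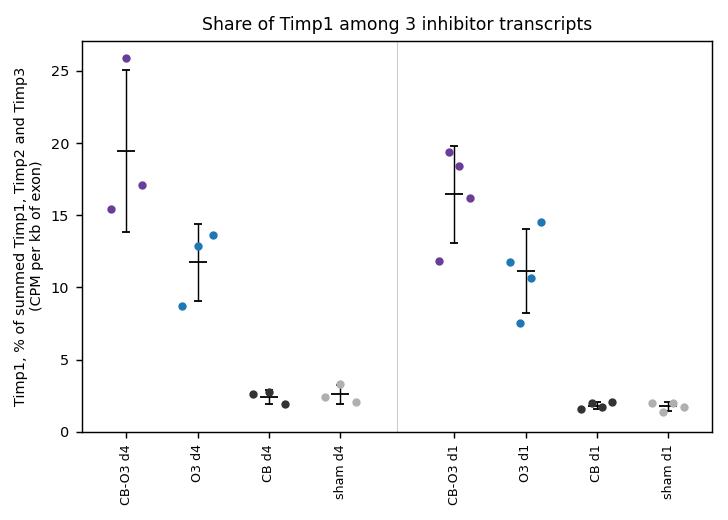
Timp1 as a percentage of the summed CPM per kilobase of exon of Timp1, Timp2 and Timp3, by group, with points for libraries, long bars for means and whiskers for SD (d4, n = 3; d1, n = 4). Every ozone and co-exposure library lies at 7.56% or above, and every carbon black and sham library at 3.30% or below.

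Among the proteases, Mmp14 rose on day 4 and passed in no comparison of day 1. It had 162, 190.4 and 155 CPM in CB-O3 lungs of day 4, 143, 133 and 154 CPM in O3 lungs and 58.8, 56.8 and 60.5 CPM in CB lungs, against 62.0, 58.1 and 62.4 CPM in sham lungs. Both ozone-containing groups stood far above the others. The log2 change was 1.47 ± 0.14 in CB-O3 lungs (2.77-fold, edgeR adjusted p = 2.1e-08) and 1.24 ± 0.14 in O3 lungs (2.36-fold, adjusted p = 6.2e-07), and both held under every alternative and without any single library. After 1 exposure it had 71.7, 82.1, 78.9 and 69.1 CPM in CB-O3 lungs, 82.2, 55.1, 62.3 and 80.2 CPM in O3 lungs and 41.4, 65.4, 43.2 and 58.2 CPM in CB lungs, against 62.2, 59.0, 66.6 and 58.4 CPM in sham lungs. CB-O3 libraries lay above sham by 0.29 ± 0.12 on the log2 scale (adjusted p = 0.10), a difference that passed in a fit of the 2 groups alone (0.030), and O3 libraries overlapped sham.

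Mmp2, whose precursor Mmp14 activates, rose on day 4 with a wider spread. It had 121, 95 and 63.9 CPM in CB-O3 lungs, 135, 107 and 125 CPM in O3 lungs and 75.9, 128 and 65.7 CPM in CB lungs, against 75.5, 42.9 and 57.5 CPM in sham lungs. Only the O3 group was clear of sham. The log2 change was 1.06 ± 0.26 in O3 lungs (2.08-fold, edgeR adjusted p = 0.0050). In CB-O3 lungs it was 0.67 ± 0.26 (1.59-fold, adjusted p = 0.049). The CB-O3 call was lost without sham replicate 2 (0.49, adjusted p = 0.20) or 3 (0.65, 0.11), without CB-O3 replicate 1 (0.43, 0.23) or 2 (0.66, 0.099), without the low-count filter (0.10) and in a fit of the 2 groups alone (0.098). On day 1 all exposed groups overlapped sham, and the log2 differences were -0.35 ± 0.23 in CB-O3 lungs, -0.22 ± 0.23 in O3 lungs and -0.26 ± 0.23 in CB lungs, with adjusted p-values of 0.31, 0.59 and 0.77.

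Mmp15 fell in all 4 ozone-containing comparisons. It had 139, 136 and 127 CPM in CB-O3 lungs of day 4, 185, 152 and 175 CPM in O3 lungs and 203, 242 and 229 CPM in CB lungs, against 238, 221 and 210.0 CPM in sham lungs. After 1 exposure it had 172, 129, 141 and 139 CPM in CB-O3 lungs, 142, 168, 171 and 147 CPM in O3 lungs and 238, 215, 227 and 221 CPM in CB lungs, against 251, 244, 256 and 235 CPM in sham lungs. No ozone-containing group overlapped the sham group of its day. The log2 changes were -0.73 ± 0.10 in CB-O3 lungs of day 4 (39.8% lower, edgeR adjusted p = 3.9e-06), -0.39 ± 0.10 in O3 lungs of day 4 (23.6% lower, 0.0067), -0.76 ± 0.09 in CB-O3 lungs of day 1 (41.1% lower, 1.5e-06) and -0.65 ± 0.09 in O3 lungs of day 1 (36.3% lower, 2.0e-05). The O3 call of day 4 was lost without O3 replicate 2 (-0.31, adjusted p = 0.062), and the other 3 held under every alternative.

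Mmp19 passed the threshold in no comparison of the edgeR fit of all 28 libraries. It had 32.2, 25.4 and 17.7 CPM in CB-O3 lungs of day 4, 30.2, 24.6 and 27.5 CPM in O3 lungs and 37.4, 31.3 and 21.5 CPM in CB lungs, against 19.8, 15.7 and 18.3 CPM in sham lungs. The O3 and CB libraries lay above sham, and the CB-O3 libraries overlapped it. In O3 lungs of day 4 the log2 difference was 0.61 ± 0.23 (adjusted p = 0.057), which passed with DESeq2 (0.046) and in a fit of the 2 groups alone (0.0035). In CB-O3 lungs of day 4 it was 0.48 ± 0.23 (adjusted p = 0.10), and without CB-O3 replicate 3 it was 0.68 (adjusted p = 0.032). The day 1 differences were 0.32 ± 0.19 in CB-O3 lungs (adjusted p = 0.26), 0.46 ± 0.19 in O3 lungs (0.12; 0.022 in a fit of the 2 groups alone) and 0.40 ± 0.19 in CB lungs (0.47).

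Of the matrix genes, Tnc rose in every ozone-containing group. It had 193, 152 and 108 CPM in CB-O3 lungs of day 4, 108, 132 and 141 CPM in O3 lungs and 24.4, 20.8 and 11.1 CPM in CB lungs, against 22.7, 12.3 and 13.8 CPM in sham lungs. After 1 exposure it had 86.3, 133, 68.7 and 53.9 CPM in CB-O3 lungs, 82.7, 57.7, 79.7 and 120.1 CPM in O3 lungs and 19.0, 29.7, 11.4 and 24.9 CPM in CB lungs, against 28.3, 19.0, 28.8 and 29.0 CPM in sham lungs. CB-O3 and O3 libraries overlapped on each day, and all of them lay above every CB and sham library. The log2 change was 3.21 ± 0.38 in CB-O3 lungs of day 4 (9.24-fold, edgeR adjusted p = 1.1e-06) and 2.96 ± 0.38 in O3 lungs of day 4 (7.78-fold, 6.0e-06). Its day 1 change was 1.70 ± 0.31 in CB-O3 lungs (3.24-fold, 0.00055) and 1.69 ± 0.31 in O3 lungs (3.22-fold, 0.00098). All 4 calls held under every alternative and without any single library.

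Fn1 rose on day 4. It had 1029, 648 and 529 CPM in CB-O3 lungs, 782, 712 and 866 CPM in O3 lungs and 518, 411 and 325 CPM in CB lungs, against 442, 229 and 325 CPM in sham lungs. The ozone-containing groups were clear of sham, and CB was not. The log2 change was 1.15 ± 0.30 in CB-O3 lungs (2.21-fold, edgeR adjusted p = 0.0044) and 1.24 ± 0.30 in O3 lungs (2.37-fold, 0.0040). On day 1 Fn1 had 314, 379, 190.4 and 172 CPM in CB-O3 lungs and 381, 359.8, 328 and 531 CPM in O3 lungs, against 380.3, 457, 297 and 304 CPM in sham lungs. These overlapped, with log2 differences of -0.45 ± 0.25 in CB-O3 lungs (adjusted p = 0.24) and 0.15 ± 0.25 in O3 lungs (0.76).

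Eln rose on day 4 as well. It had 429.8, 390.0 and 323 CPM in CB-O3 lungs, 486, 372 and 435 CPM in O3 lungs and 355, 481 and 216 CPM in CB lungs, against 259, 206 and 199 CPM in sham lungs. Only the CB group overlapped sham. The log2 change was 0.78 ± 0.24 in CB-O3 lungs (1.72-fold, edgeR adjusted p = 0.015) and 0.96 ± 0.25 in O3 lungs (1.95-fold, 0.0065). The CB-O3 call was lost without sham replicate 2 (0.74, adjusted p = 0.056), sham replicate 3 (0.71, 0.060) or CB-O3 replicate 1 (0.69, 0.055). On day 1 the groups overlapped sham, with 0.38 ± 0.21 in CB-O3 lungs (adjusted p = 0.23) and 0.35 ± 0.21 in O3 lungs (0.31).

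The exons of 5 of the genes overlap genes on the opposite strand: Timp3 with Syn3, Mmp19 with Tmem198b and Gm47093, Fn1 with Apol7d, Tnc with 8030451A03Rik and Eln with Gm30003. The library kit marks strand, but the sources used here do not say if counting used it. Without it, reads of the overlap cannot be assigned with certainty. No counts were given for Apol7d, 8030451A03Rik, Gm30003 or Gm47093. Syn3 reached at most 101 and Tmem198b at most 116 estimated counts in a library, against at least 4956 for Timp3 and at least 102 for Mmp19.

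**Figure D3:**
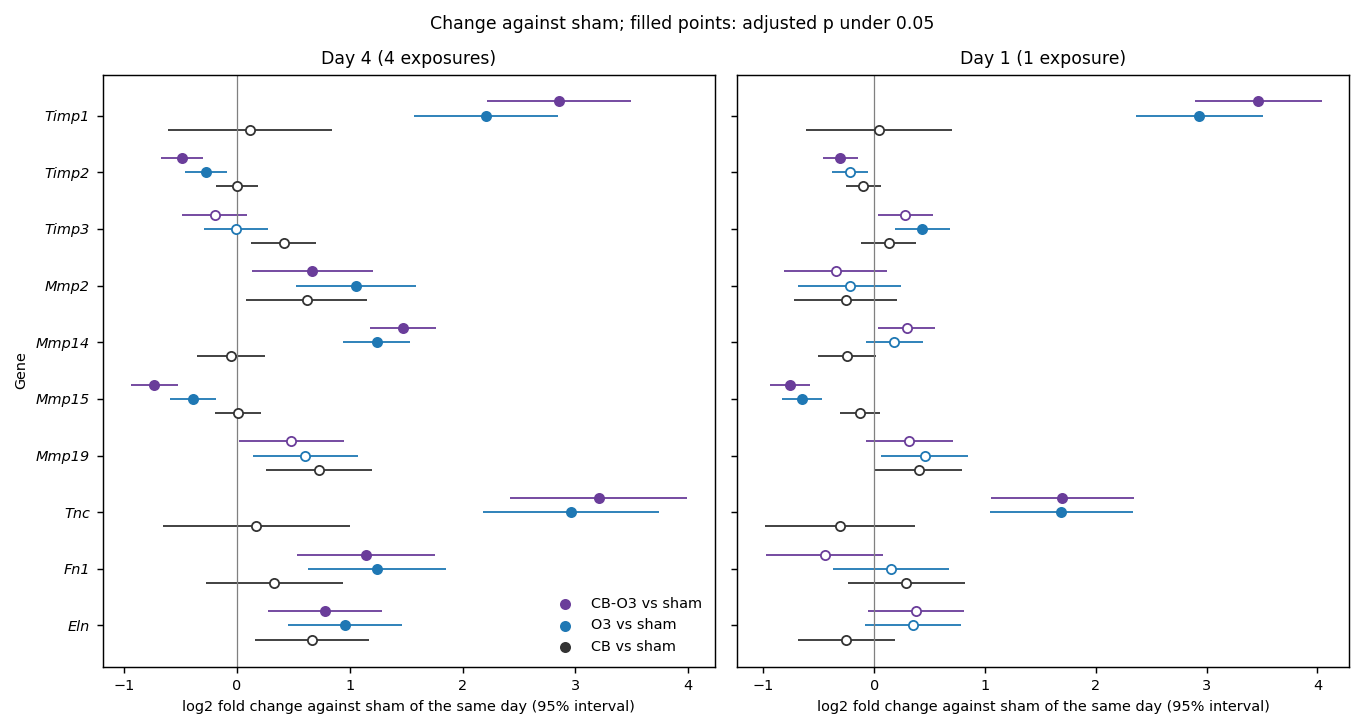
Log2 fold change against the sham group of the same day for each gene, at day 4 (left) and day 1 (right), with 95% intervals. Filled points passed an edgeR adjusted p of 0.05. Timp1 and Tnc sit at 1.69 or above in CB-O3 and O3 lungs on both days, Mmp14 at 1.24 or above on day 4, and no carbon black point is filled.

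Carbon black alone moved none of the 10 genes past the threshold. On day 4 edgeR called 0 of them, with 0.208% of all genes called (0.161% higher and 0.047% lower). Of the 10, 4 had an unadjusted p under 0.05, as had 2266 of all genes, and DESeq2 called 0 of the 10. Those 4 were Mmp19 (log2 difference 0.73 ± 0.23, adjusted p = 0.14), Timp3 (0.41 ± 0.14, 0.16), Eln (0.66 ± 0.24, 0.20) and Mmp2 (0.62 ± 0.26, 0.26). CB replicate 3 was the lowest library of its group for 8 of the 10 genes. Without it Timp3 (0.55, adjusted p = 0.033), Mmp19 (0.93, 0.030) and Eln (0.92, 0.031) passed, and 637 genes were called in place of 31. Timp1 differed by 0.11 ± 0.35 (95% interval -0.61 to 0.84) and Tnc by 0.17 ± 0.40 (-0.66 to 1.0).

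On day 1 edgeR also called 0 of the 10 in CB lungs, with 1.66% of all genes called (1.57% higher and 0.0873% lower). Of the 10, only Mmp19 had an unadjusted p under 0.05, as had 1515 of all genes, and DESeq2 called 0 of the 10. Timp1 differed by 0.04 ± 0.32 (95% interval -0.62 to 0.70) and Tnc by -0.31 ± 0.33 (-0.99 to 0.37). These intervals do not reach the changes seen in O3 lungs of day 1.

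Co-exposure was then set against ozone alone. On day 4 edgeR called 0 of the 10 genes and 0% of all genes, with 3 of the 10 and 2991 of all genes at an unadjusted p under 0.05. DESeq2 called 1 of the 10, Mmp15, and 493 genes. Timp1 was higher in CB-O3 lungs by 0.64 ± 0.27 (1.56-fold, 95% interval 0.09 to 1.20, edgeR adjusted p = 0.19), Mmp15 lower by 21.3% (-0.35 ± 0.10, 0.091) and Timp2 lower by 13.9% (-0.22 ± 0.09, 0.19). Mmp14 differed by 0.23 ± 0.14 (adjusted p = 0.34). These 4 genes did not overlap between the groups, but edgeR called none of them. The share of all genes without overlap was not counted. For Timp1 the lowest CB-O3 library had 34.5 CPM and the highest O3 library 33.3 CPM. Without CB-O3 replicate 1, Timp2 (-0.31, adjusted p = 0.018) and Mmp15 (-0.37, 0.025) passed, and 2813 genes were called in place of 0. Tnc (0.25 ± 0.33), Fn1 (-0.10 ± 0.29), Eln (-0.18 ± 0.24), Mmp2 (-0.39 ± 0.25), Timp3 (-0.19 ± 0.14) and Mmp19 (-0.12 ± 0.22) had intervals that include 0.

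On day 1 edgeR called 0 of the 10 and 0% of all genes in CB-O3 lungs against O3 lungs, with 2 of the 10 and 2337 of all genes at an unadjusted p under 0.05. DESeq2 called 0 of the 10 and 18 genes. The 2 were Timp1, higher in CB-O3 lungs by 0.53 ± 0.23 (95% interval 0.05 to 1.01, edgeR adjusted p = 0.28), and Fn1 at -0.60 ± 0.26 (-1.13 to -0.07, 0.27). Tnc differed by 0.01 ± 0.29. The other 7 lay between -0.15 (Timp3) and 0.11 (Mmp14), with adjusted p-values of 0.54 to 0.97. The groups overlapped for all 10 genes.

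The interaction asks whether the log2 change after both exposures differs from the sum of the changes after each. On day 4 edgeR called 0 of the 10, with 1.37% of all genes called (0.766% higher and 0.605% lower). An unadjusted p under 0.05 was found for 5 of the 10 and for 3466 of all genes. DESeq2 called 1 of the 10, Timp3 (-0.61, adjusted p = 0.036). The 5 were Timp3 (-0.60 ± 0.20), Mmp2 (-1.0 ± 0.36), Mmp19 (-0.85 ± 0.32), Mmp15 (-0.36 ± 0.14) and Eln (-0.84 ± 0.34), with edgeR adjusted p-values from 0.083 to 0.15. All 5 point estimates were negative, which means below the sum of the single changes, but edgeR called none of them. Without CB replicate 3, Timp3 (-0.74, 0.026), Mmp2 (-1.19, 0.046), Mmp19 (-1.05, 0.040) and Eln (-1.10, 0.036) passed, and without CB-O3 replicate 1, Timp3 (-0.71, 0.015), Mmp2 (-1.23, 0.024) and Mmp19 (-1.07, 0.023) passed. For Timp1 the difference was 0.53 ± 0.44 and for Tnc 0.07 ± 0.52. On day 1 edgeR called 0 of the 10, with 1.46% of all genes called (0.222% higher and 1.24% lower). Of the 10, Fn1 alone (-0.89 ± 0.36, adjusted p = 0.18) had an unadjusted p under 0.05, as had 2893 of all genes, and DESeq2 called 0 of the 10.

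The change against sham was also compared between days. In CB-O3 lungs 3 of the 10 genes had a larger change on day 4 than on day 1, with 10.2% of all genes called (5.44% higher and 4.78% lower). These were Mmp14, with a difference of 1.18 ± 0.19 between the log2 changes (edgeR adjusted p = 0.00021), Fn1 (1.59 ± 0.39, 0.011) and Tnc (1.51 ± 0.48, 0.046). In O3 lungs 2 of the 10 did, with 4.24% of all genes called (2.36% higher and 1.88% lower): Mmp14 (1.06 ± 0.19, 0.0014) and Mmp2 (1.28 ± 0.34, 0.034). The Mmp14 and Fn1 calls held under every alternative and without any single library.

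The Tnc and Mmp2 calls were lost without single libraries. The Tnc difference in CB-O3 lungs lost its call without sham replicate 1, 3 or 4 or CB-O3 replicate 1, 3 or 4 of day 1, or without sham replicate 2 or 3 or CB-O3 replicate 1 or 2 of day 4 (1.29 to 1.51, adjusted p = 0.063 to 0.12). It also lost it without the low-count filter (0.090) and in a fit of the 4 groups alone (0.059). The Mmp2 difference in O3 lungs lost its call without sham or O3 replicate 1, 2 or 3 of day 1, sham replicate 2 or 3 of day 4 or O3 replicate 1 or 3 of day 4 (1.10 to 1.28, adjusted p = 0.058 to 0.11), and without the low-count filter (0.073). In CB-O3 lungs the Mmp2 difference of 1.02 ± 0.34 (adjusted p = 0.061) passed with DESeq2 (0.025) and without sham replicate 4 of day 1, sham replicate 1 of day 4 or CB-O3 replicate 3 of day 4 (1.14 to 1.24, 0.027 to 0.039).

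In O3 lungs the differences for Tnc (1.27 ± 0.48, edgeR adjusted p = 0.15) and Fn1 (1.09 ± 0.39, 0.13) did not pass. The other genes showed no called difference between days. For Timp1 it was -0.61 ± 0.41 in CB-O3 lungs (95% interval -1.47 to 0.24, edgeR adjusted p = 0.39) and -0.73 ± 0.42 in O3 lungs (-1.59 to 0.14, 0.40), so its point estimates were lower on day 4. Timp3 differed by -0.48 ± 0.18 in CB-O3 lungs (0.099) and passed without CB-O3 replicate 1 of day 4 (-0.60, 0.041). Mmp15 differed by 0.03 ± 0.13 in CB-O3 lungs (-0.24 to 0.30) and 0.26 ± 0.13 in O3 lungs (-0.01 to 0.54). In CB lungs edgeR called 0 of the 10, with 0.094% of all genes called (0.00672% higher and 0.0873% lower). Of the 10, Eln (0.92 ± 0.32) and Mmp2 (0.88 ± 0.34) had an unadjusted p under 0.05, as had 1248 of all genes. DESeq2 called 0 of the 10. Between the sham groups of day 4 and day 1, edgeR called 0 of the 10 and 0% of all genes, with 2 of the 10, Timp3 (-0.32 ± 0.13) and Mmp19 (-0.49 ± 0.21), and 1473 of all genes at an unadjusted p under 0.05, and DESeq2 called 0.

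**Figure D4:**
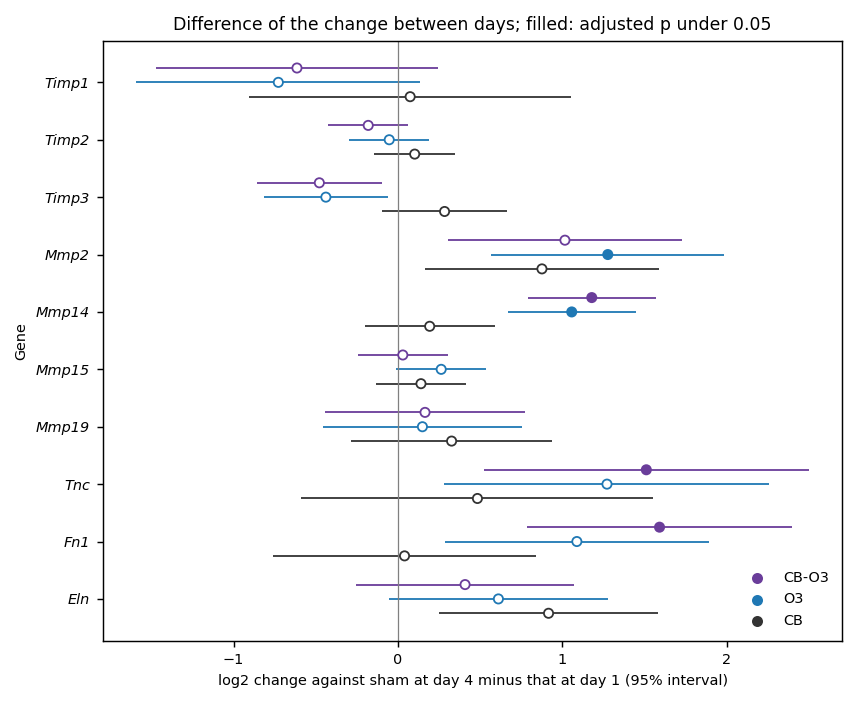
Difference between the log2 change against sham on day 4 and that on day 1, for each gene in CB-O3, O3 and CB lungs, with 95% intervals. Filled points passed an edgeR adjusted p of 0.05. Mmp14 is filled for CB-O3 (1.18) and O3 (1.06), Fn1 (1.59) and Tnc (1.51) for CB-O3 and Mmp2 (1.28) for O3, all to the right of 0.

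In some groups 1 library sat at the same end for many of the genes. Of the CB-O3 libraries of day 4, replicate 1 was the highest for 8 of the 10 genes and replicate 3 the lowest for 9. In sham lungs of day 4 replicate 1 was the highest for 8, and in CB-O3 lungs of day 1 replicate 2 was the highest for 8. Other groups were more even. No library was the highest for more than 5 genes in O3 lungs of day 4, or more than 4 in sham lungs of day 1. How often these libraries were at an end over all genes was not counted.

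Markers of other cells moved in the same comparisons, and their part in the results was not tested. On day 4 the summed level of 8 fibroblast markers was 1942 to 3125 CPM in CB-O3 lungs, 2189 to 2709 CPM in O3 lungs and 1727 to 2175 CPM in CB lungs, against 1259 to 1888 CPM in sham lungs. Of these 8, Col1a1 and Col1a2 rose in CB-O3 lungs and Pdgfra and Tcf21 fell. In O3 lungs Col1a1, Col1a2 and Col3a1 rose and Tcf21 fell. Unlike the sum, the median log2 change of the 8 markers was below 0, at -0.14 in CB-O3 lungs and -0.38 in O3 lungs, and 0.24 in CB lungs. Of 6 macrophage markers, 4 rose in CB-O3 lungs of day 4 and 4 in O3 lungs. Their sums were 636 to 1667 CPM and 1173 to 1502 CPM, against 397 to 606 CPM in sham lungs. In CB lungs of day 4 Cd68 alone rose, and the sums of 865 to 960 CPM also lay above sham. Of 6 endothelial markers, 5 fell in CB-O3 lungs of day 4 and 4 in O3 lungs, with sums of 1146 to 2166 CPM and 2076 to 2169.9 CPM, against 2746 to 3751 CPM in sham lungs. Of 6 smooth muscle and pericyte markers, 2 fell in each, with sums of 392.2 to 503 CPM in CB-O3 lungs and 370.03 to 442 CPM in O3 lungs, against 529.7 to 577 CPM in sham lungs. Of 4 mesothelial markers, Msln alone rose in each, and their sums overlapped sham.

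On day 1 the fibroblast sums were 1265 to 1523 CPM in CB-O3 lungs and 1529 to 1824 CPM in O3 lungs, against 1646 to 2128 CPM in sham lungs, so CB-O3 lay below sham and O3 overlapped it. Col3a1 and Col1a2 fell in CB-O3 lungs and 0 of the 8 passed in O3 lungs by edgeR. Timp1 and Tnc were higher than sham in all of these CB-O3 and O3 libraries. Of the macrophage markers, 2 fell in CB-O3 lungs and 3 rose in O3 lungs. Their sums were 429.97 to 802 CPM and 831 to 1063 CPM, against 653 to 802 CPM in sham lungs. In CB lungs of day 1 Cd68 alone rose, and the sums of 1054 to 1520 CPM lay above sham. Of the endothelial markers, 4 fell in CB-O3 lungs and 3 in O3 lungs, with sums of 2378 to 3227 CPM and 2573 to 3321 CPM, against 3488 to 3850.03 CPM in sham lungs. All 5 neutrophil markers rose in CB lungs of day 1, and 0 of the 5 passed in any ozone-containing group.

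Of the other cells checked, 1 of 3 club cell markers fell in CB-O3 lungs and 2 of 3 in O3 lungs of day 4. Of 5 alveolar type 1 markers, Pdpn and Aqp5 rose in both and Rtkn2 fell in CB-O3 lungs, and 0 of 5 alveolar type 2 markers passed in either by edgeR. The sum of 5 heart and skeletal muscle markers was 80.3 to 105 CPM in O3 lungs, against 229 to 452 CPM in sham lungs of day 4, and 2 of the 5 fell. The sum of 4 fat markers was 13.8 to 29.7 CPM in CB-O3 lungs, against 54.7 to 342 CPM in sham lungs of day 1, and 2 of the 4 fell. The fat marker Ucp1 was at 0 in all CB-O3 libraries of day 1, and every other marker was detected in every group.

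The wider pathway was followed in 5 further lists. A gene named here as rising or falling passed an edgeR adjusted p of 0.05 in the comparison given. The calls named for CB-O3 and O3 lungs held in every alternative that tested the gene, and those for CB lungs did not. The counts stand against 34.1% of all genes called in CB-O3 lungs and 20.7% in O3 lungs of day 4, and 19.2% and 11.4% on day 1. The lists were chosen with earlier results of these data known, and no list was tested as a whole. Of 14 other metalloproteases and inhibitors tested, out of 22 listed, 3 rose and 2 fell in CB-O3 lungs of day 4, near the 34.1% of all genes, and 2 rose and 2 fell in O3 lungs. Mmp12, the macrophage elastase, averaged 13.2 ± 5.78 CPM in CB-O3 lungs and 12.1 ± 1.06 CPM in O3 lungs, against 3.17 ± 0.95 CPM in sham lungs (SD, n = 3 each), log2 changes of 2.03 ± 0.32 and 1.91 ± 0.32 (edgeR adjusted p = 2.6e-05 and 0.00011). Reck, a membrane-anchored inhibitor of metalloproteases, fell by 1.09 ± 0.15 on the log2 scale in CB-O3 lungs and by 0.60 ± 0.14 in O3 lungs, and Mmp28, an epithelial protease, fell by 1.45 ± 0.21 and 0.83 ± 0.20. Mmp11, or stromelysin 3, rose on day 4 by 0.55 ± 0.15 in CB-O3 lungs and 0.80 ± 0.14 in O3 lungs, and fell on day 1 by 0.52 ± 0.13 in CB-O3 lungs and 0.57 ± 0.13 in O3 lungs. The difference between days passed for it in CB-O3 lungs (1.07 ± 0.20, adjusted p = 0.00077) and in O3 lungs (1.36 ± 0.20, 0.00011). The list's median log2 change on day 4 was 0.02 in CB-O3 lungs and 0.02 in O3 lungs.

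In CB lungs of day 1 the neutrophil proteases Mmp9, Mmp8 and Mmp25 rose, by 3.39 ± 0.57, 4.45 ± 0.77 and 3.30 ± 0.62 on the log2 scale (edgeR adjusted p = 0.0032, 0.0036 and 0.0048). Libraries ranged widely, with 21.4 to 222 CPM of Mmp9 in CB lungs against 5.28 to 20.02 CPM in sham lungs. The summed neutrophil markers ranged from 105 to 4092 CPM in the same CB libraries, against 33.7 to 216 CPM in sham lungs. In a fit of the 2 groups alone these calls were lost (adjusted p = 0.19, 0.22 and 0.24).

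Of 17 ADAM and ADAMTS proteases, 5 rose and 4 fell in CB-O3 lungs of day 4 and 6 rose and 2 fell in O3 lungs, with median log2 changes of -0.09 and 0.08. Of all genes, 34.1% and 20.7% were called there. Adamts4, which cuts aggrecan and versican, rose in all 4 ozone-containing groups, by 2.56 ± 0.60 in CB-O3 lungs and 2.48 ± 0.60 in O3 lungs of day 4 and by 2.39 ± 0.48 in CB-O3 lungs and 2.77 ± 0.48 in O3 lungs of day 1. Its level was low, at 4.46 ± 2.18 CPM in CB-O3 lungs and 4.25 ± 0.88 CPM in O3 lungs, against 0.74 ± 0.19 CPM in sham lungs of day 4 (SD, n = 3 each). Adam12, a protease of activated mesenchymal cells, rose by 2.19 ± 0.43 in CB-O3 lungs and 2.06 ± 0.43 in O3 lungs of day 4. On day 1, 2 rose and 2 fell in CB-O3 lungs, and 3 rose in O3 lungs, with 19.2% and 11.4% of all genes called.

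Of 21 elastic fibre genes other than Eln, 1 rose and 5 fell in CB-O3 lungs of day 4, below the 34.1% of all genes, and 2 rose and 3 fell in O3 lungs, near the 20.7% of all genes. Ltbp4, which tethers latent TGF-beta and helps elastin assembly, fell by 1.31 ± 0.14 in CB-O3 lungs and 0.77 ± 0.13 in O3 lungs. The microfibril gene Mfap2 fell by 0.90 ± 0.17 in CB-O3 lungs and 0.76 ± 0.17 in O3 lungs. Efemp2, or fibulin 4, needed for elastin crosslinking, rose by 0.58 ± 0.12 in CB-O3 lungs and 0.47 ± 0.12 in O3 lungs. On day 1, 9 fell and 0 rose in CB-O3 lungs and 4 fell and 0 rose in O3 lungs, with list medians of -0.38 and -0.21. Of all genes, 19.2% and 11.4% were called there. Fbln1, or fibulin 1, fell by 0.98 ± 0.17 in CB-O3 lungs.

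Of 15 provisional and matricellular matrix genes tested, out of 16 listed, 8 rose and 4 fell in CB-O3 lungs of day 4 and 6 rose and 3 fell in O3 lungs. Their median log2 changes were 0.84 and 0.35, and 34.1% and 20.7% of all genes were called. Osteopontin (Spp1) averaged 329 ± 88.9 CPM in CB-O3 lungs and 233.5 ± 6.29 CPM in O3 lungs, against 84.3 ± 24.5 CPM in sham lungs of day 4 (SD, n = 3 each), and rose in all 4 ozone-containing groups. Tgfbi, an adhesion protein induced by TGF-beta, rose by 1.41 ± 0.21 in CB-O3 lungs and 1.48 ± 0.21 in O3 lungs of day 4. Tenascin X (Tnxb), a family member of Tnc found in mature connective tissue, fell by 1.53 ± 0.15 in CB-O3 lungs and 0.99 ± 0.15 in O3 lungs of day 4, and by 0.92 ± 0.13 in CB-O3 lungs of day 1. Vitronectin (Vtn) fell by 1.39 ± 0.21 in CB-O3 lungs and 1.25 ± 0.21 in O3 lungs of day 4. On day 1, 5 rose and 2 fell in CB-O3 lungs and 6 rose and 2 fell in O3 lungs, with 19.2% and 11.4% of all genes called.

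Of 15 integrins and matrix receptors, 4 rose and 3 fell in CB-O3 lungs of day 4 and 4 rose and 1 fell in O3 lungs. Their median log2 changes were 0.01 and 0.13, and 34.1% and 20.7% of all genes were called. Itgb6, the epithelial integrin subunit that pairs with Itgav to bind fibronectin and latent TGF-beta, averaged 152 ± 6.20 CPM in CB-O3 lungs and 161 ± 7.87 CPM in O3 lungs, against 77.5 ± 6.36 CPM in sham lungs of day 4 (SD, n = 3 each). It rose by 0.97 ± 0.15 in CB-O3 lungs and 1.06 ± 0.15 in O3 lungs, and the change was larger than on day 1 in each (1.19 ± 0.19 and 1.35 ± 0.19, edgeR adjusted p = 0.00023 and 0.00011). The collagen receptor subunit Itga1 fell by 1.03 ± 0.17 in CB-O3 lungs and 0.86 ± 0.17 in O3 lungs of day 4. On day 1, 2 rose and 5 fell in CB-O3 lungs and 2 rose and 1 fell in O3 lungs, with 19.2% and 11.4% of all genes called. In CB lungs of day 4, 0 genes of any of the 5 lists passed by edgeR. In CB lungs of day 1, where 1.66% of all genes were called, 5 list genes rose besides the 3 proteases above: Emilin2 (1.5 ± 0.31, edgeR adjusted p = 0.013), Tgfbi (0.80 ± 0.18, 0.019), Vcan (1.46 ± 0.36, 0.034), Cd44 (0.51 ± 0.10, 0.0058) and Itgb3 (0.50 ± 0.12, 0.033). All 5 calls were lost in a fit of the 2 groups alone (adjusted p = 0.11 to 0.23). All but Cd44 were also lost without sham replicate 1, 3 or 4 or without CB replicate 3 or 4 of day 1 (0.35 to 1.48, adjusted p = 0.053 to 0.27).

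**Figure D5:**
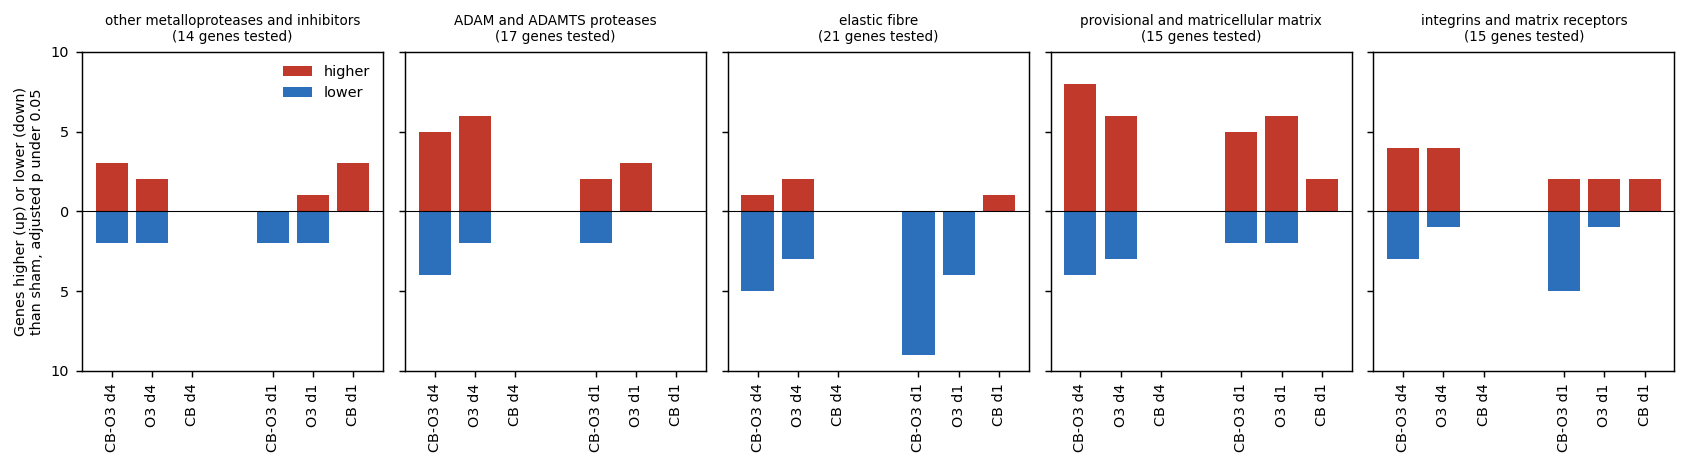
Number of genes in each of 5 matrix pathway lists that were higher (up) or lower (down) than sham of the same day at an edgeR adjusted p under 0.05, by exposure and day. In CB-O3 lungs of day 4, where 17.7% of all genes were higher and 16.3% lower, 8 of 15 provisional matrix genes were higher and 4 lower, and 1 of 21 elastic fibre genes was higher and 5 lower. No list was tested as a whole.

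The genes whose pattern over the 8 group means came close to those of Timp1, Tnc and Eln were named by the smallest root-mean-square distance of centred log2 levels, among 13624 genes with at least 2 CPM in a group. For Timp1 these were Hpx, the heme carrier hemopexin, at a distance of 0.23, Prss22 at 0.27 and Orm2, an acute-phase protein, at 0.34. Hpx averaged 12.1 CPM in CB-O3 lungs and 6.45 CPM in O3 lungs of day 4, against 1.58 CPM in sham lungs. For Tnc they were the replication gene Cdc6 (0.20), Dmbt1 (0.21) and the Ets factor Etv4 (0.25). For Eln they were Tc2n (0.11), Mtbp (0.12), Tom1l1 (0.13) and Golm1 (0.13). The points are group means of the same 28 libraries, several of these genes had under 1 CPM in sham lungs, and the likeness is a description.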

How the data were processed

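Polyadenylated RNA of mouse lung homogenate was sequenced as paired 51-base reads with a kit that marks strand, per the labels' protocols. Estimated counts for each gene were deposited by the authors; Salmon 1.1.0, DESeq2, R 3.6.3 and mm10 are named in the submitters' processing notes, without roles. The table gives 35880 gene identifiers, of which 35505 were named by the GENCODE M21 annotation and 11799 had no count in any library, and 17.7% of its values were not whole.

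Estimated counts were rounded, normalized by TMM and tested with edgeR 4.0.16 (limma 3.58.1, R 4.3.3), by a quasi-likelihood F test with robust dispersion in 1 fit of 8 groups and 28 libraries (20 residual degrees of freedom). Genes kept by filterByExpr numbered 14887 and held 99.9% of counts. Benjamini-Hochberg adjustment covered all of them, separately in each of 14 comparisons, and intervals are 95% intervals of the fit. Other settings tried were DESeq2 1.42.0, scaling by median of ratios, keeping all genes with a count or those with a mean of at least 20 counts, a fit of the compared groups only, the replicate number as a block, and leaving out each library. Adjusted p-values in the report are from edgeR unless DESeq2 is named.

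The rule names the 10 genes in every comparison, singly or by their count or range, up to 4 genes of each further list with the smallest p among those past the threshold, and genes among the 4 most like Timp1, Tnc and Eln, of which some are not reported here. The 10 genes and the lists were chosen with earlier results of these data known. Sequences come from RefSeq's promoter table for GRCm38.p6. Mmp2, Mmp19, Fn1 and Eln had no entry there.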

Additional observations from a re-analysis of the deposited data

Results flagged for a closer look

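The lowest library for Tnc in sham lungs of day 1, replicate 2 with 19.0 CPM, stood apart from the other 3, which had 28.3 to 29.0 CPM. Its gap to the nearest of them was 0.935 of the group's range, above Dixon's 95% critical value for 4 libraries. This was 1 of 40 groups examined, and chance gives about 1 in 20.

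The change against sham differed between day 4 and day 1 for 4 of the genes by edgeR's test of the difference itself. On the log2 scale the difference was 1.18 for Mmp14, 1.59 for Fn1 and 1.51 for Tnc in CB-O3 lungs, and 1.06 for Mmp14 and 1.28 for Mmp2 in O3 lungs. In each case the change was higher on day 4. Of all genes, 10.2% were called for this difference in CB-O3 lungs and 4.24% in O3 lungs. The Tnc and Mmp2 calls were lost without single libraries and without the low-count filter, and those of Mmp14 and Fn1 held.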

How the results depend on the processing

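No called result changed direction under any alternative. Median-of-ratios scaling kept every count of called genes within 1.5 times. Values that follow are counts of genes called, with that of the reported fit after "against", and the cause of each shift was not tested. In a fit of the compared groups only, CB-O3 against sham on day 4 had 3100 (against 5073), CB against sham 7 on day 4 (against 31) and 7 on day 1 (against 247), the interaction 0 on day 4 (against 204) and 844 on day 1 (against 218), the O3 difference between days 1101 (against 631) and the CB difference between days 2 (against 14). There, 1 of the 10 genes fell in O3 lungs of day 4 (against 2) and 2 in O3 lungs of day 1 (against 1). DESeq2 called 175 for CB on day 4, 493 and 18 for CB-O3 against O3 on day 4 and day 1 (against 0 and 0), 1028 and 543 for the interaction on day 4 and day 1, and 41 for the CB difference between days. By DESeq2, 1 of the 10 was lower in CB-O3 against O3 on day 4, 1 in the interaction of day 4 and 2 in O3 lungs of day 1. Without the low-count filter, 1 of the 10 fell in O3 lungs of day 4, 1 had a larger O3 change on day 4 (against 2), and the interaction of day 4 had 64. With a mean of at least 20 counts, CB-O3 against O3 on day 4 had 28 and the interaction of day 4 had 307.

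With the replicate number as a block, CB-O3 against O3 on day 4 had 154 genes and the interaction of day 4 had 879. Mmp2 in CB-O3 lungs of day 4 (adjusted p = 0.066 by edgeR) and the Tnc difference between days in CB-O3 lungs (0.058) were no longer called, and Mmp19 in O3 lungs of day 4 (0.044) was. The labels do not say what a number shares, so the reported fit did not take the numbers to pair the libraries. The correlations that follow do not decide whether a number ties libraries together. Deviations of same-numbered libraries correlated across genes at -0.25 to 0.37 on day 1 (6 of 24 pairs over 0.1), and at -0.10 to 0.48 on day 4 (6 of 18). For different-numbered libraries this was -0.23 to 0.21 on day 1 (10 of 72) and -0.37 to 0.30 on day 4 (3 of 36). Of the libraries, 5 of 16 on day 1 and 7 of 12 on day 4 correlated best with their own number.

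Leaving out 1 library at a time gave, for all genes, 8 to 637 for CB on day 4, 1776 to 2969 and 906 to 1517 for CB-O3 and O3 on day 1, 78 to 357 for CB on day 1, 0 to 2813 for CB-O3 against O3 on day 4, and 0 to 2982 and 56 to 471 for the interaction on day 4 and day 1, 360 to 629 for the O3 difference between days and 2 to 42 for that of CB. Of the 10 genes, it gave 0 to 2 lower in O3 lungs of day 4, 0 to 3 higher in CB lungs of day 4, 0 to 2 lower in CB-O3 against O3 on day 4, 0 to 4 lower in the interaction of day 4, 0 to 1 with a smaller and 2 to 4 with a larger change on day 4 in CB-O3 lungs, and 1 to 2 with a larger change on day 4 in O3 lungs. Groups of 3 or 4 libraries, and for Timp1 a sham level of few counts, limit what could be detected.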
